A study of Saccharomyces cerevisiae with 22 samples.

Results

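The 6 genes described here carry or read the unfolded protein response of Saccharomyces cerevisiae: IRE1 (YHR079C), HAC1 (YFL031W), TRL1 (YJL087C), PTC2 (YER089C), GCN4 (YEL009C) and ULI1 (YFR026C). They were chosen by gene name, with earlier results of these data known. Every cluster of transcription start sites that the authors assigned to them was taken. This gave 11 of 5195 clusters: 4 for HAC1, 2 each for GCN4 and ULI1, and 1 each for IRE1, TRL1 and PTC2. The question was how the start sites of these genes respond when protein folding in the endoplasmic reticulum (ER) fails, and whether they respond alike when the Swi/Snf chromatin remodelling complex is altered.

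Start sites were measured by sequencing the 5′ ends of polyadenylated RNA after decapping with the enzyme Cap-Clip, in 20 libraries of W303 yeast from 10 groups of 2. Cells in YPD were given 5 mM DTT for 1 h, which reduces disulphide bonds, or were left untreated. The mutants were swi3E815X (swi3[delta]; swi3-E815X::LEU2), snf2W935R (snf2[delta]; snf2-W935R::LEU2) and snf2Q928K (snf2[delta]; snf2-Q928K::LEU2), and the wild types were SWI3 (swi3[delta]; SWI3::LEU2) and SNF2 (snf2[delta]; SNF2::LEU2). All 5 strains, wild types included, therefore carry a deletion and a LEU2-marked copy put back. Swi3 and Snf2 are subunits of Swi/Snf, and Snf2 is its ATPase. A further 2 SWI3 libraries made without Cap-Clip were not analysed here.

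Values come from 7 comparison tables made by the authors with DESeq2, 1 of DTT against untreated wild type and 6 of a mutant against wild type under 1 treatment. They give a mean normalized count per cluster, a log2 fold change with its standard error (SE, written after ± throughout) and a p-value adjusted by Benjamini-Hochberg, and a cluster is called changed here when that adjusted p is under 0.05. Depth and spread per library are unknown. A 5′-end count does not grow with the length of the transcript. Levels per group were computed from the deposited mean and fold change. The wild-type levels of both snf2 tables differed, beyond 1 constant factor, by a robust SD of 0.000919 untreated and 0.0012 with DTT on the log2 scale, so these comparisons were read as sharing their wild-type libraries. The wild-type levels of the swi3 and snf2 tables average to those of the wild-type table, which was therefore read as 4 libraries per treatment and each mutant table as 2 against 2. No header names the wild-type strain of a mutant table, and the strain with the same gene put back was assumed: SWI3 for swi3E815X and SNF2 for both snf2 mutants. In RNA from whole cultures, fewer cells and less RNA per cell cannot be told apart. Starts of SNF2 and SWI3 were not called changed in any table, and since the alleles are point or truncating changes, this does not test the strain labels.

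In the unfolded protein response, Ire1, a kinase and nuclease in the ER membrane, senses unfolded protein and cuts the intron out of HAC1 mRNA in the cytoplasm. The tRNA ligase Trl1 joins the exons, and the spliced mRNA is translated into Hac1, a bZIP transcription factor that binds unfolded protein response elements (UPREs) in target promoters. The unspliced mRNA is poorly translated because its intron pairs with the leader. Ptc2, a type 2C protein phosphatase, acts on Ire1 and restrains the response. Gcn4, the activator of amino acid biosynthesis genes, is itself controlled by short upstream open reading frames in its leader, and has been reported to act with Hac1 at UPR targets. ULI1 is a gene of little known function that is induced by the response.

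The sequence before the ULI1 starts is shown because ULI1 gave the largest changes of the group. It is the 300 bases before the main ULI1 cluster, on the minus strand of the R64 genome (RefSeq, strain S288C, whereas the samples are W303), with both matches to TACGTG, the UPRE-2 core, in capitals, 1 of them read on the opposite strand as CACGTA.
ULI1, chrVI:206312-206611: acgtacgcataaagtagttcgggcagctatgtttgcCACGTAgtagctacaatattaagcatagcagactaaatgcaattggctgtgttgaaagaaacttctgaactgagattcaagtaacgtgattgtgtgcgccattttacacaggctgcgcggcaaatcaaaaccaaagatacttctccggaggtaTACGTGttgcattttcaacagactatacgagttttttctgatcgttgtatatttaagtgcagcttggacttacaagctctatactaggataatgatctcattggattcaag
Counted from the first base of each match, these lie 264 and 111 bp before the cluster. TACGTG was found, on either strand, in 8.51% of the 5195 windows of this length before all clusters. The UPRE-1 core CAGCGTG was in 1.93% of the windows and in none of those of the 6 genes. TGACTC, the Gcn4 site, was in 9.24% of all windows and had 2 matches before the PTC2 cluster. A letter match is a description and not a bound site.

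The HAC1 junctions are shown because Ire1 cuts there and because starts on either side of them were measured. Capitals mark the 3 bases on each side of each junction of the annotated intron, which spans 75840 to 76091 of chromosome VI (252 bp, plus strand).
HAC1 exon 1 to intron, chrVI:75825-75854: attggcgtaatcCAGCCGtgattacgatga
HAC1 intron to exon 2, chrVI:76077-76106: tgcttgtactgtCCGAAGcgcagtcaggtt
HAC1 leader, chrVI:75147-75157: ctcctccccca
HAC1 intron, chrVI:75944-75954: tgggggaggag
The last pair is complementary over all 11 bases. The leader stretch lies 32 to 22 bp before the coding start, inside the main start cluster.

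The 4 short upstream frames of GCN4 are shown because its start clusters lie on either side of them. They are on the minus strand of chromosome V, with the ATG in capitals.
GCN4 frame 1, chrV:140113-140124: ATGgcttgctaa
GCN4 frame 2, chrV:140048-140056: ATGtgttaa
GCN4 frame 3, chrV:139928-139939: ATGtacccgtag
GCN4 frame 4, chrV:139903-139914: ATGtttccgtaa
The GCN4 starts lay in 3 clusters, of which 2 are assigned to the gene. The cluster in the leader (chrV:140005-140072, 242 to 309 bp before the coding start) lies past frame 1 and spans the ATG of frame 2. The other assigned cluster lies 120 to 212 bp inside the coding region. A further cluster on the same strand (chrV:140270-140353, 507 to 590 bp before the coding start) was deposited as intergenic, so it is not counted among the 11, and was looked at after its values were seen. All 4 frames lie downstream of it.

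**Figure D1:**
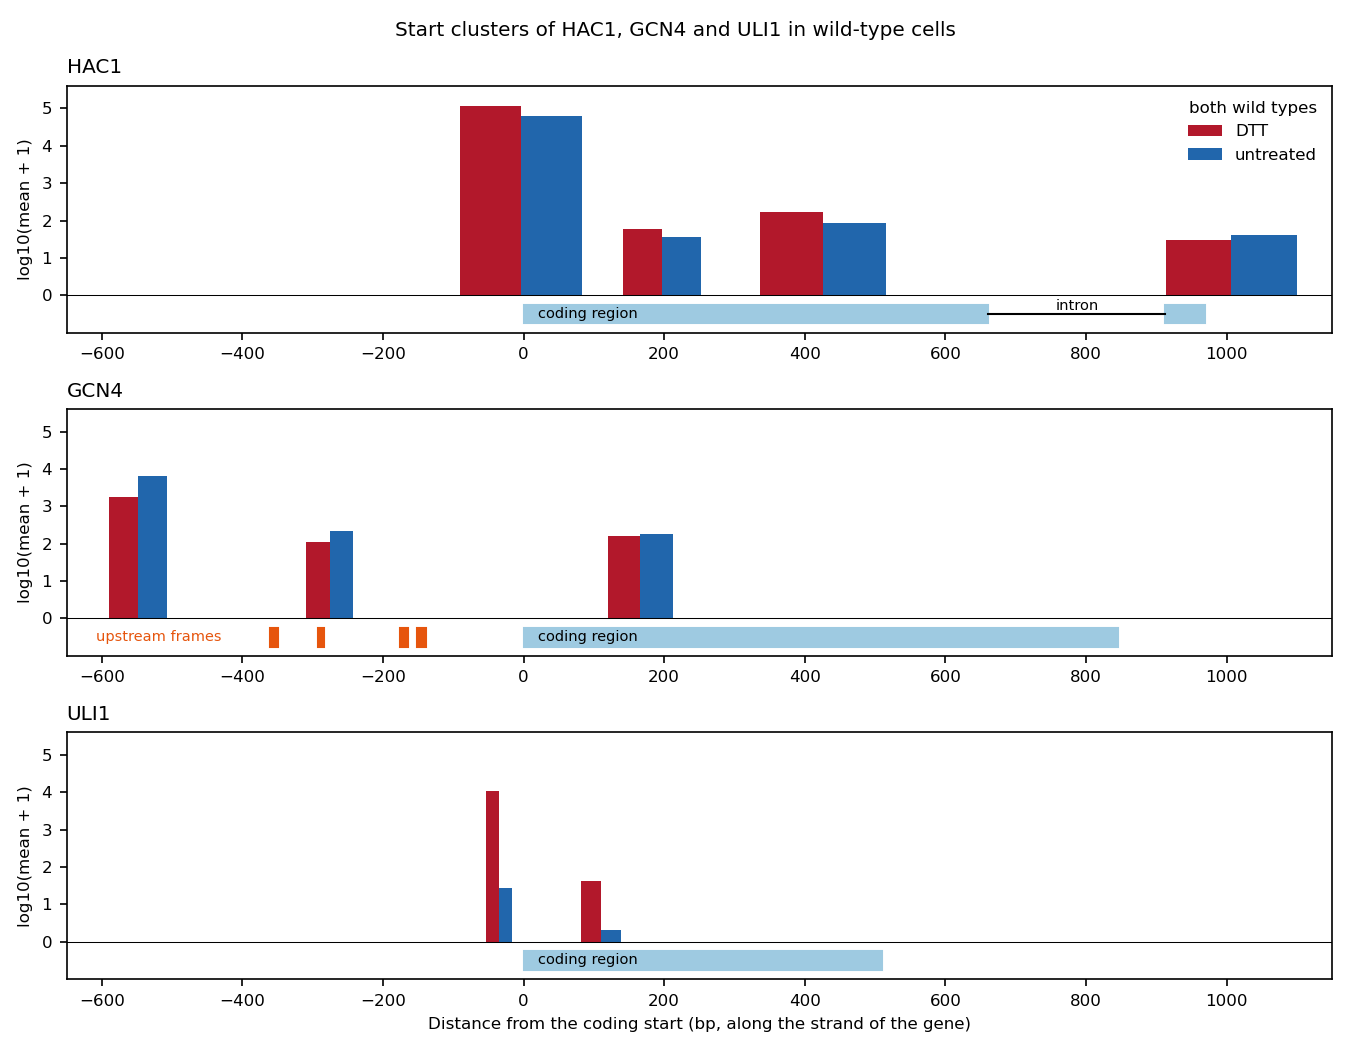
Start clusters of HAC1, GCN4 and ULI1 in both wild types, by distance in bp from the coding start along the gene's strand. Bar height is log10 of the mean normalized count plus 1. Each bar pair spans its cluster, with DTT in the left part and untreated in the right part, so the split within a cluster is not a position. The main HAC1 cluster spans the coding start, the main ULI1 cluster ends 17 bp before it, and the highest GCN4 bars are the intergenic cluster upstream of all 4 frames (orange).

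With DTT, wild-type cells had far more RNA starting at ULI1 and more starting at HAC1, while the cluster upstream of GCN4 was lower. In the authors' deposited table, 3 of the 11 clusters were called higher with DTT than untreated and 0 lower, against 33.8% of all clusters changed, 16.5% higher and 17.3% lower. These 3 were both ULI1 clusters and the main HAC1 cluster. In each mutant with DTT, 1 of the 11 clusters, the main ULI1 cluster, was called, and it was lower than in wild type. With DTT the authors' DESeq2 test called 1.39%, 5.37% and 14.5% of all clusters changed in swi3E815X, snf2W935R and snf2Q928K, and 1.17%, 2.83% and 7.18% lower. Without DTT, 0 of the 11 clusters were called in any mutant by the authors' DESeq2 test, against 1.81% of all clusters in swi3E815X, 2.74% in snf2W935R and 6.56% in snf2Q928K. At unadjusted p under 0.05 there was 1 in swi3E815X, with 1 in snf2W935R and 0 in snf2Q928K, against 9.61%, 10.1% and 15.4% of all clusters at that threshold.

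IRE1, the sensor, started from 1 cluster 244 to 301 bp before its coding start (chrVIII:261835-261892). Its mean was 67.9 normalized counts with DTT and 105.4 untreated in both wild types together. The authors' deposited table puts this at -0.63 ± 0.54 in log2 units (adjusted p = 0.390). By strain, it had 78.5 with DTT and 91.4 untreated in SWI3, and 57.7 with DTT and 118.6 untreated in SNF2. With DTT swi3E815X had 55.7, snf2W935R 86.5 and snf2Q928K 90.2, so the mutants lay on both sides of the wild types. Mutant log2 fold changes ran from -0.60 ± 0.86 (snf2Q928K, untreated) to 0.64 ± 0.56 (snf2Q928K, DTT) in the authors' deposited tables, and none was called.

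HAC1, the transcription factor that Ire1 switches on, was among the highest clusters of the genome. Its main cluster (chrVI:75089-75262) reaches from 90 bp before the coding start to 83 bp inside it, and the authors also list YFL032W for it. Its mean was 114643 normalized counts with DTT and 61709 untreated, which made it rank 4 with DTT and 14 untreated among all clusters. It held 2.09% of all normalized counts with DTT and 0.832% untreated. The sum of all normalized counts was lower with DTT, so this share rose by more than the mean did. The log2 fold change was 0.89 ± 0.21 in the authors' deposited table (1.86-fold higher with DTT, adjusted p = 0.000150). The 95% interval ran from 0.48 to 1.30. Tested against a change of 0.5 on the log2 scale in place of 0, the call was lost (adjusted p = 0.129).

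No difference in HAC1 starts between a mutant and its wild type passed the test. With DTT the mean was 92798 in swi3E815X against 122355 in SWI3 wild type. With DTT it was 100299 in snf2W935R and 106550 in snf2Q928K, against 107036 in SNF2 wild type. Untreated, it was 47741 in swi3E815X against 63042 in SWI3, and 54077 in snf2W935R and 57610 in snf2Q928K against 60274 in SNF2. For DTT the authors' deposited tables gave swi3E815X a log2 fold change of -0.40 ± 0.29 (adjusted p = 0.971), snf2W935R one of -0.09 ± 0.30 (adjusted p = 0.934) and snf2Q928K one of -0.01 ± 0.23 (adjusted p = 0.990). Their 95% intervals ran from -0.97 to 0.17, from -0.69 to 0.50 and from -0.47 to 0.45, so the interval of swi3E815X reaches furthest below 0. The change with DTT within each genotype, read from the group means, was 1.94-fold in swi3E815X and in SWI3, 1.85-fold in snf2W935R and in snf2Q928K, and 1.78-fold in SNF2. The mutant effect with DTT minus that without it was 0.00 ± 0.39, 0.06 ± 0.43 and 0.06 ± 0.39 on the log2 scale, in the same order of mutants.

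The main cluster held between 99.66% and 99.89% of all HAC1 starts in every group. The other 3 clusters lay past the coding start, at 141 to 252 bp and 336 to 515 bp in exon 1, and at 914 to 1100 bp. The last of them (chrVI:76093-76279) begins 1 base after the first base of exon 2. Most of it lies past the end of the coding region at 76147. The wild-type means of these 3 clusters with DTT were 57.8, 171.3 and 28.6 normalized counts. None was called with DTT in the authors' deposited table, at log2 fold changes of 0.70 ± 1.05, 1.00 ± 0.60 and -0.47 ± 1.29. The largest mutant values among them were -2.26 ± 0.98 (adjusted p = 0.182) in snf2W935R with DTT and -2.61 ± 1.29 (adjusted p = 0.495) in swi3E815X untreated in the authors' deposited tables. A 5′ end does not show whether the RNA behind it was spliced, so splicing of HAC1 was not measured. Whether 5′ ends inside or past a coding region, here or in GCN4, are true starts was not tested.

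TRL1, the ligase that joins the HAC1 exons, had the lowest main cluster of the 6 genes with DTT. It lies 92 to 138 bp before the coding start (chrX:272577-272623) and averaged 24.6 normalized counts with DTT and 24.9 untreated in wild type. The authors' deposited table has a log2 fold change of -0.02 ± 0.69 for it (adjusted p = 0.989). The means with DTT were 39.9 in snf2W935R and 56.3 in snf2Q928K against 20.1 in SNF2, and untreated they were 61.9 and 54.1 in the same mutants against 16.3 in SNF2. Both snf2 mutants thus read above their wild type under both treatments. By the authors' deposited tables these were log2 fold changes of 0.98 ± 1.00 and 1.48 ± 0.82 with DTT and of 1.92 ± 0.96 and 1.73 ± 0.93 untreated, none called (adjusted p between 0.252 and 0.719). The authors list YJL086C for this cluster too. The SWI3 wild type had 29.0 with DTT and 33.5 untreated, above SNF2.

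PTC2, the phosphatase that restrains Ire1, started 309 to 364 bp before its coding start (chrV:337649-337704), with 49.9 normalized counts with DTT and 104.9 untreated in wild type. At -1.07 ± 0.45 in log2 units, by the authors' deposited table, it missed the threshold (adjusted p = 0.0526). When the p-values were adjusted over clusters with a mean of at least 50 normalized counts alone, it passed (adjusted p = 0.0459). It did not pass after median centring (adjusted p = 0.0634) or when tested against 0.5 on the log2 scale (adjusted p = 0.318). The group means were lower with DTT than untreated in every genotype, from 51.1 against 64.7 in swi3E815X to 57.3 against 176.9 in snf2Q928K. No mutant was called, with log2 fold changes from -0.68 ± 0.63 (swi3E815X, untreated) to 0.74 ± 0.53 (snf2Q928K, untreated) in the authors' deposited tables.

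GCN4 had 2 assigned clusters, and neither was called in any table. In the leader cluster the wild-type mean was 112.9 normalized counts with DTT and 221.8 untreated, -0.97 ± 0.47 on the log2 scale by the authors' deposited table (adjusted p = 0.0968). Inside the coding region it was 157.7 with DTT and 179.8 untreated, -0.19 ± 0.55 on the log2 scale by the authors' deposited table (adjusted p = 0.828). Mutant log2 fold changes of both ran from -0.74 ± 0.51 (leader, swi3E815X untreated) to 1.38 ± 0.76 (inside the coding region, snf2Q928K untreated) in the authors' deposited tables. The untreated wild types themselves differed there, at 264.0 in SWI3 and 95.4 in SNF2 inside the coding region. The cluster upstream of all 4 frames held between 84.6% and 96.5% of the starts in the 3 clusters. It fell to 1773 normalized counts with DTT, against 6609 untreated, in wild type. The authors' deposited table gave it a log2 fold change of -1.90 ± 0.42 (3.73-fold lower with DTT, adjusted p = 4.69e-05).

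With DTT this upstream GCN4 cluster was higher in both snf2 mutants than in wild type. Its means with DTT were 5309 in snf2W935R and 3343 in snf2Q928K against 2102 in SNF2, and 1837 in swi3E815X against 1448 in SWI3. According to the authors' deposited tables the log2 fold changes with DTT were 1.34 ± 0.39 in snf2W935R (2.53-fold, adjusted p = 0.0161), 0.67 ± 0.25 in snf2Q928K (1.59-fold, adjusted p = 0.0460) and 0.34 ± 0.29 in swi3E815X (adjusted p = 0.998). The snf2Q928K call was lost when fold changes were centred on their median (adjusted p = 0.0514). Untreated, the means were 6411 and 6745 in snf2W935R and snf2Q928K against 9719 in SNF2, and 3220 in swi3E815X against 3501 in SWI3. None of these was called, and the wild types stood far apart. Set against the SWI3 wild type in place of SNF2, the log2 differences were 1.87 and 1.21 with DTT and 0.87 and 0.95 untreated, whereas the untreated values against their own SNF2 wild type were -0.60 and -0.53. The effect with DTT minus that untreated was 1.94 ± 0.56 in snf2W935R (two-sided normal test, adjusted p = 0.0537), just outside the threshold. It passed when adjusted over clusters with a mean of at least 50 (adjusted p = 0.0451). After median centring it did not pass (adjusted p = 0.0720). In snf2Q928K the effect with DTT minus that untreated was 1.20 ± 0.44 (adjusted p = 0.194). Both differences rest on the SNF2 wild type. Set against SWI3, the values with DTT and untreated lay closer together in both mutants.

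ULI1, the response gene, had the largest Wald statistic of any cluster in the wild-type comparison and the largest change of the 6 genes. Its main cluster lies 17 to 54 bp before the coding start (chrVI:206274-206311). The mean was 11071 normalized counts with DTT and 26.6 untreated, which placed it at rank 82 with DTT and 4460 untreated among all clusters. Its log2 fold change was 8.70 ± 0.26 in the authors' deposited table (417-fold higher, adjusted p = 3.76e-250), with a 95% interval from 8.20 to 9.20. The wild-type strains stood close together, at 11060 with DTT and 21.3 untreated in SWI3 and 11087 with DTT and 31.2 untreated in SNF2.

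In all 3 mutants with DTT, the main ULI1 cluster reached less than the wild-type level. The means with DTT were 3378 in swi3E815X against 11060 in SWI3, and 2475 in snf2W935R and 2123 in snf2Q928K against 11087 in SNF2. For swi3E815X the authors' deposited table gave -1.71 ± 0.31 on the log2 scale (3.27-fold lower, adjusted p = 6.69e-06). The authors' deposited tables gave -2.16 ± 0.32 for snf2W935R (4.48-fold lower, adjusted p = 1.46e-09) and -2.39 ± 0.24 for snf2Q928K (5.22-fold lower, adjusted p = 1.41e-21). These 3 were the sole calls among 65 tests of the 11 clusters in the 6 mutant tables. The mutants still had 144-fold (swi3E815X), 220-fold (snf2W935R) and 91.4-fold (snf2Q928K) higher means with DTT than untreated, against 518-fold in SWI3 and 355-fold in SNF2. These folds rest on untreated means of 11.3 (snf2W935R) to 31.2 (SNF2) normalized counts and have no error or test, so their order is uncertain.

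Whether the mutant deficit at ULI1 depends on DTT could not be shown. Untreated, the main cluster had 23.4 normalized counts in swi3E815X against 21.3 in SWI3, and 11.3 in snf2W935R and 23.2 in snf2Q928K against 31.2 in SNF2. Untreated, the authors' deposited tables gave swi3E815X 0.13 ± 1.20, snf2W935R -1.47 ± 1.25 and snf2Q928K -0.43 ± 0.99 on the log2 scale, with errors several times those with DTT. The difference between treatments was -1.85 ± 1.24 in swi3E815X (adjusted p = 0.999), -0.69 ± 1.29 in snf2W935R (0.943) and -1.96 ± 1.02 in snf2Q928K (0.504). Over all clusters, 0.0386%, 0.869% and 1.41% passed this test, and 0 of the 11 did in any mutant. The snf2Q928K effect minus the snf2W935R effect with DTT was -0.22 ± 0.40 (adjusted p = 1.00), which does not show that the alleles act alike.

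**Figure D2:**
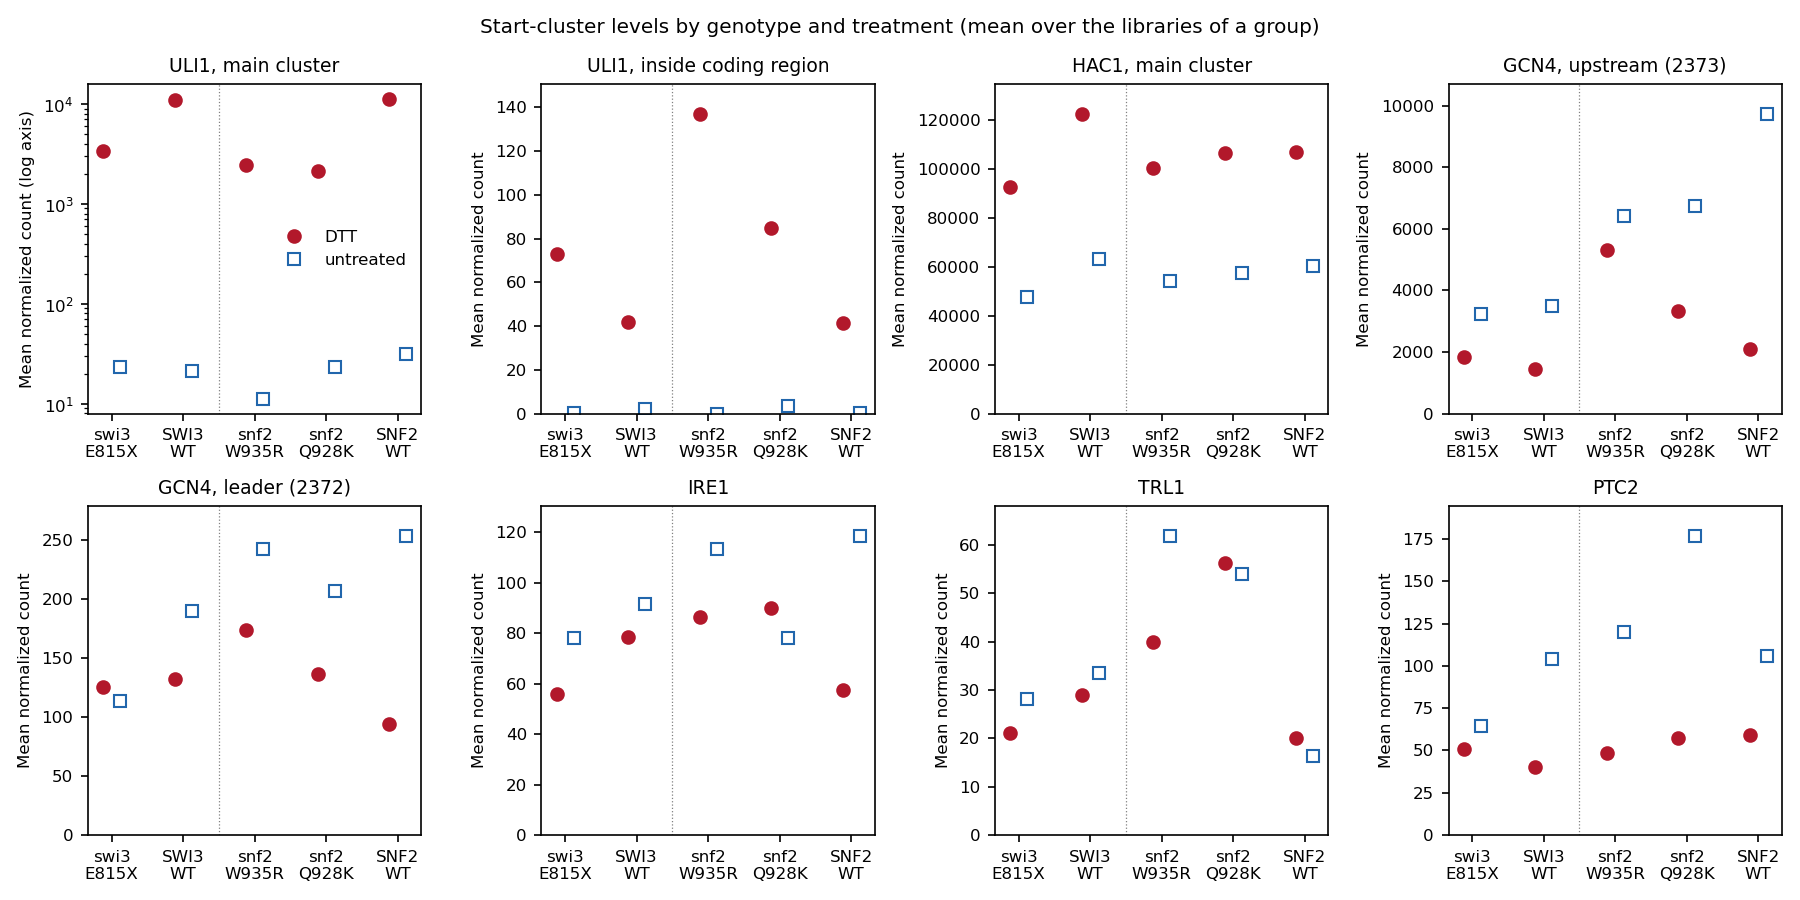
Mean normalized count by genotype of the ULI1, IRE1, TRL1 and PTC2 clusters, the main HAC1 cluster, and the upstream and leader GCN4 clusters. Axes are linear from 0, except a log axis for the main ULI1 cluster. DTT is shown as filled circles and untreated as open squares. Each point is the mean over a group's 2 libraries, with no error since values per library were not used; the dotted line separates the SWI3 strains from the SNF2 strains. ULI1 with DTT is lower in the 3 mutants (2123 to 3378) than in both wild types (11060 and 11087), and HAC1 is higher with DTT than untreated in every genotype.

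ULI1 also had a second, much lower cluster of 5′ ends 82 to 139 bp inside its coding region (chrVI:206118-206175). It had 41.6 normalized counts with DTT and 1.00 untreated in wild type, and in the authors' deposited table the log2 fold change was 5.38 ± 1.12 (adjusted p = 1.55e-05). With DTT the inner cluster had 72.8 in swi3E815X against 41.8 in SWI3, and 136.8 in snf2W935R and 85.0 in snf2Q928K against 41.2 in SNF2. Its mean was above that of wild type in each mutant, while the main cluster's was below. The authors' deposited tables gave log2 fold changes of 0.80 ± 0.53 (adjusted p = 0.903), 1.73 ± 0.66 (adjusted p = 0.104) and 1.05 ± 0.59 (adjusted p = 0.266), none called. As a share of all ULI1 starts with DTT, the inner cluster made up 2.11% in swi3E815X, 5.24% in snf2W935R and 3.85% in snf2Q928K, against 0.376% in SWI3 and 0.370% in SNF2. These shares have no test, and whether the 5′ ends inside the coding region are true starts was not tested.

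**Figure D3:**
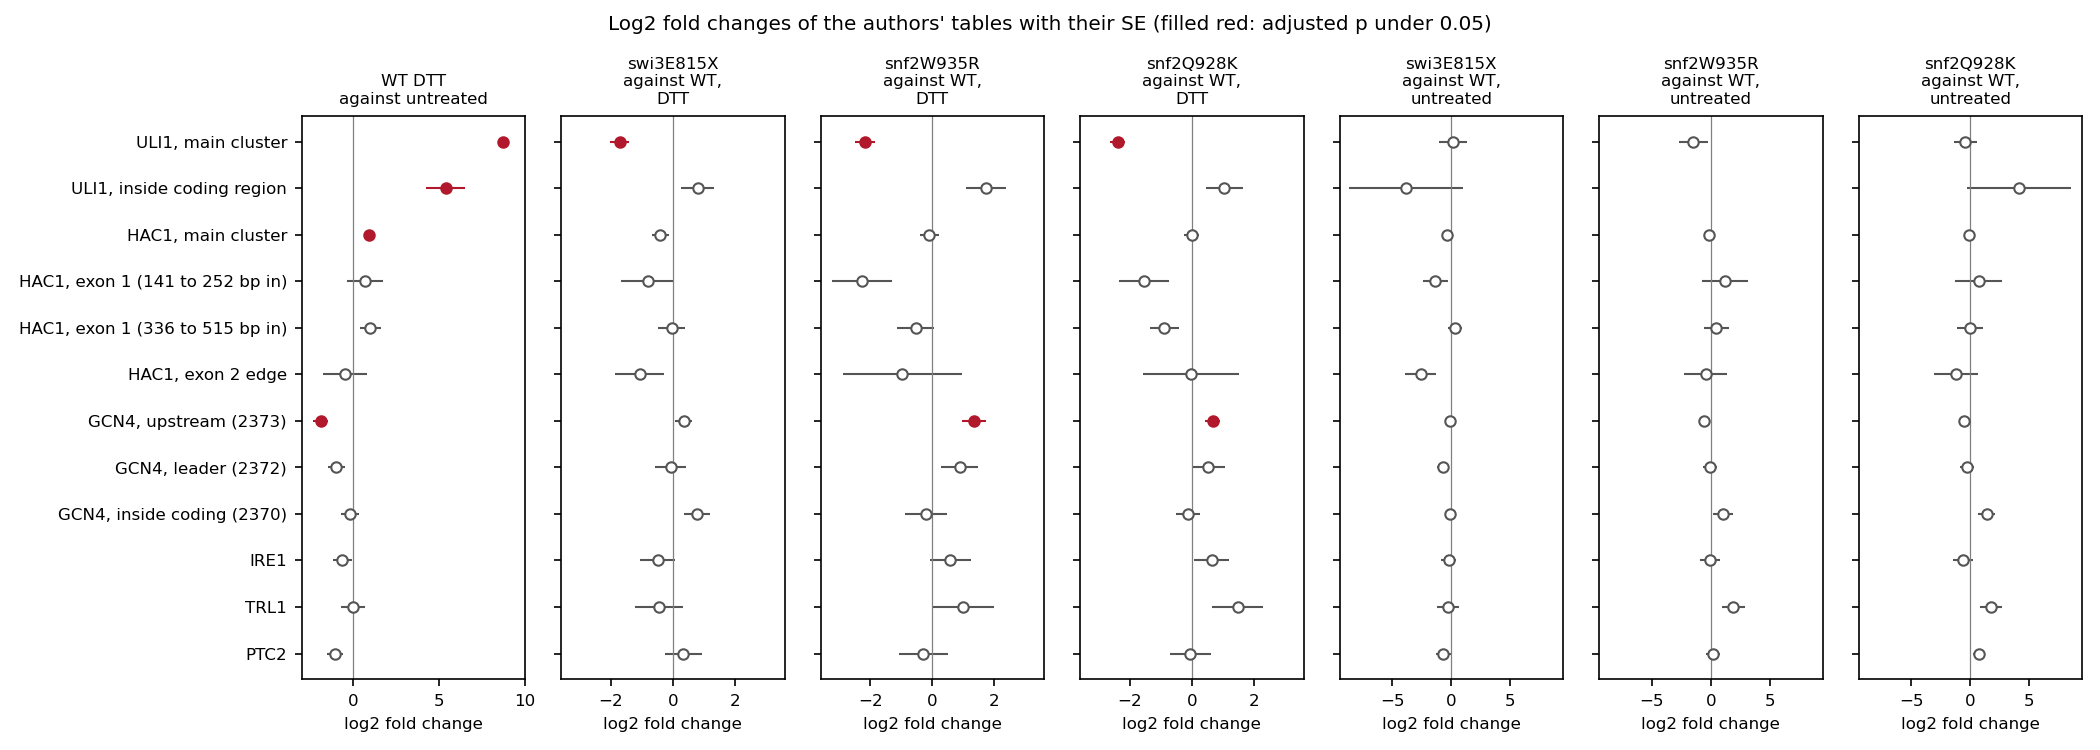
Log2 fold changes from the authors' deposited tables with their SE, for the 11 clusters and the intergenic cluster upstream of GCN4, in the 7 comparisons. Filled red points passed adjusted p under 0.05; x axes differ between the wild-type, DTT and untreated panels. The main ULI1 cluster is called in all DTT panels, at 8.70 in wild type and at -1.71, -2.16 and -2.39 in the mutants; the inner ULI1 cluster has no value in snf2W935R untreated.

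Clusters with the most similar pattern were found by the root mean square difference of centred log2 means over the 10 groups, among 3316 clusters with a mean of at least 50 normalized counts in every table. For ULI1 they were SIL1 (1.76), STF2 (1.91) and YDL124W (2.18), against its own root mean square of 3.94. For HAC1 they were YNL320W (0.166), RPN5 (0.170) and MPC1 (0.178), against 0.47 for HAC1 itself, and for PTC2 they were URA7 (0.222), PMA1 (0.272) and DPH5 (0.275), against 0.65. For the GCN4 cluster inside the coding region they were SMM1 (0.232), HTS1 (0.257) and RRP45 (0.269), against 0.44. For IRE1 they were CDC33 (0.169), an intergenic cluster (0.173) and SBH2 (0.177), against 0.33, and for TRL1 GCV3 (0.303), SHR5 (0.335) and YPR063C (0.372), against 0.62. SIL1 encodes a nucleotide exchange factor of the ER chaperone Kar2. The filter leaves out clusters as low untreated as ULI1 is in some tables. The upstream GCN4 cluster, which held most of the GCN4 starts, was not matched in this way.

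Genes downstream of and around the 6 were read from lists of known roles, by their main cluster. These lists too were chosen with earlier results of these data known. Of 18 Hac1 targets in ER folding and degradation, all 18 with a cluster, 12 were called higher and 0 lower with DTT in wild type, with a median of 1.64 on the log2 scale against 0.01 over all clusters, from the authors' deposited table. Of all clusters, 16.5% were called higher in that comparison. The largest were SIL1 at 4.33 ± 0.24, EUG1, a protein disulphide isomerase, at 3.24 ± 0.21, KAR2, the ER Hsp70, at 3.12 ± 0.29 and LHS1, its partner, at 2.80 ± 0.37 in the authors' deposited table. In snf2Q928K with DTT, 4 of the 18 were called lower, KAR2 at -1.54 ± 0.27, LHS1 at -1.08 ± 0.36, SIL1 at -0.99 ± 0.24 and EUG1 at -0.80 ± 0.24 in the authors' deposited table. In snf2W935R with DTT only KAR2 was called lower, at -1.83 ± 0.37 in the authors' deposited table, and in swi3E815X 0 of 18 were called. Over all clusters, 7.18% were called lower with DTT in snf2Q928K, 2.83% in snf2W935R and 1.17% in swi3E815X. ERO1, the oxidase that drives disulphide formation, was called lower in both snf2 mutants untreated, at -1.27 ± 0.32 in snf2W935R and -1.27 ± 0.31 in snf2Q928K in the authors' deposited tables. It was the 1 of 18 called in each, where 1.79% and 3.74% of all clusters were called lower.

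Of 19 Gcn4 targets in amino acid biosynthesis, 5 were called lower and 0 higher with DTT in wild type, where 17.3% of all clusters were called lower and 16.5% higher. ARG1, of arginine synthesis, was at -1.71 ± 0.61, HIS1, of histidine synthesis, at -1.58 ± 0.31, ILV2, of branched-chain amino acid synthesis, at -1.56 ± 0.26 and ADE4, of purine synthesis, at -1.48 ± 0.29 in the authors' deposited table. Untreated mutants had more calls higher than lower: 2 against 0 in swi3E815X, 3 against 0 in snf2W935R and 7 against 2 in snf2Q928K. Over all clusters the authors' DESeq2 test called 0.463% higher and 1.35% lower in untreated swi3E815X, 0.945% higher and 1.79% lower in snf2W935R, and 2.82% higher and 3.74% lower in snf2Q928K. ARG1 was higher in each, at 2.55 ± 0.49, 4.27 ± 0.49 and 4.47 ± 0.43 in the authors' deposited tables. ARG4, also of arginine synthesis, was likewise called higher in each, at 1.28 ± 0.30, 1.37 ± 0.31 and 1.98 ± 0.30 in the authors' deposited tables. ARG3, of the same pathway, was called higher in both untreated snf2 mutants, at 2.69 ± 0.71 in snf2W935R and 2.36 ± 0.76 in snf2Q928K in the authors' deposited tables. LYS9, of lysine synthesis, was called lower in untreated snf2Q928K, at -1.83 ± 0.43 in the authors' deposited table.

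With DTT, 0 of the 19 Gcn4 targets were called in swi3E815X. In snf2W935R 1 was called higher, ARG8, of arginine synthesis, at 2.35 ± 0.72 in the authors' deposited table. In snf2Q928K 4 were called higher and 2 lower. Among these, ARG1 was at 2.76 ± 0.66, LYS20, of lysine synthesis, at -2.18 ± 0.62, ILV2 at 1.49 ± 0.31 and ARG4 at 1.33 ± 0.24 in the authors' deposited table. With DTT the share of all clusters called higher was 0.212% in swi3E815X, 2.54% in snf2W935R and 7.34% in snf2Q928K, and 7.18% were called lower in snf2Q928K. The assigned GCN4 clusters were called in no mutant. The upstream GCN4 cluster deposited as intergenic, which held most GCN4 starts, was called higher with DTT in both snf2 mutants.

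The remaining lists had few calls, and their wild-type counts stand against 17.3% of all clusters called lower and 16.5% higher with DTT. Of 12 genes of GCN4 translational control with a cluster, 3 were called lower with DTT in wild type: GCD7 at -0.93 ± 0.29, SUI3 at -0.71 ± 0.23 and SUI2 at -0.68 ± 0.22 in the authors' deposited table. These encode parts of the translation initiation factors eIF2B and eIF2, and none was called in a mutant. Of 15 genes of HAC1 mRNA handling and Ire1 control, 9 had a cluster. Among these 9, ADA2, a subunit of the SAGA coactivator, was the 1 called lower, at -1.06 ± 0.35 in the authors' deposited table. In mutants 0 of the 9 were called. Of 6 type 2C phosphatases including PTC2, PTC5 (1.00 ± 0.31) and PTC7 (0.69 ± 0.23) were called higher with DTT in wild type in the authors' deposited table. In snf2Q928K, PTC4 was called lower untreated (-1.72 ± 0.55) and PTC5 lower with DTT (-1.08 ± 0.33) in the authors' deposited tables, where 3.74% and 7.18% of all clusters were called lower. Of 7 genes of tRNA splicing, to which TRL1 belongs, 5 had a cluster, and 0 of these were called in any table. Of 6 genes of Gcn4 protein turnover, 2 had a cluster, and 0 of these were called in any table.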

How the data were processed

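The authors sequenced 5′ ends of RNA, per the labels. The submitters' processing notes name cutadapt, HISAT2, DESeq2 and the build sacCer3/R64, with no version or role for each. The 7 deposited tables, per the file headers, hold a mean normalized count (a signal, under the column name that DESeq2 gives to means of counts scaled by size factors), a log2 fold change, its SE, a Wald statistic (a score) and a p-value with its adjusted p. Recomputed from the deposited p-value, the Benjamini-Hochberg adjusted p differed by at most 0.000793. Sums of the mean normalized counts were between 5901941 and 7516016 per table. The median SE of clusters with a mean of at least 50 was 0.350 to 0.485, and their median log2 fold change -0.04 to 0.03.

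Tables were joined by cluster number, and 2 emptied lines per table were not used. Group means were computed from the deposited mean and fold change, on the scale of the wild-type table. Differences between fold changes were tested by dividing them by the root of their summed squared errors, with a two-sided normal p and Benjamini-Hochberg over all clusters. The calculation was first run on simulated data with normal errors of the deposited SEs, which does not test whether those SEs are right. Motifs were searched in the 300 bases before each cluster. The named clusters are all those of the 6 genes and the 3 most like the highest assigned cluster of each gene. In each of 7 gene lists and each comparison, up to 4 called with the largest change were also named. The members and lists were chosen with earlier results of these data known. Replicates were collected on separate days, per the labels.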

Additional observations from a re-analysis of the deposited data

How the results depend on the processing

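Alternatives were a threshold of 0.01, adjustment over clusters with a mean of at least 50, a test against 0.5 on the log2 scale, and median centring. For the snf2 alleles set against each other, an SE without the shared wild-type libraries was tried and changed no call. The ULI1 main cluster kept its call and direction under all of these in wild type with DTT and in each mutant with DTT, and no called value reversed. Counting the GCN4 cluster deposited as intergenic, an alternative chosen after seeing the data, gave 2 called clusters with DTT in snf2W935R and 2 in snf2Q928K, in place of 1 each. Both GCN4 calls were lost at 0.01, and against 0.5 (adjusted p = 0.341 in snf2W935R and 0.903 in snf2Q928K). Exchanging the wild-type strain, also added later, moved 53 of 71 values by less than their SE and 18 by more. The wild-type share of the inner ULI1 cluster gave no value where clusters under a mean of 50 were left out. No paired analysis was possible because values per library were not used, so replicates could not be left out in turn either. Low counts limit TRL1, PTC2 and IRE1, whose SE are between 0.45 and 1.00.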

Other observations

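Opposite to HAC1, a cluster deposited as intergenic lay within exon 1 (chrVI:75501-75575, minus strand). In the authors' deposited table it was higher with DTT than untreated in wild type, at 1.21 ± 0.46 on the log2 scale (DESeq2, adjusted p = 0.0277), and it was called in no mutant. It was picked after its values were seen. A second opposite cluster nearby (chrVI:75264-75337) was not called, at 0.23 ± 0.97 in the authors' deposited table (adjusted p = 0.886).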
